A study of Homo sapiens with 6 samples.

Results

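The 10 genes described here take up, store, move or export iron, sense it, or break down heme: TFRC, TFR2, SLC11A2, SLC25A37, SLC40A1, FTH1, FTL, ACO1, IREB2 and HMOX1. They were listed by gene symbol for their known roles, with earlier results of these data known, and all 10 were found among the 31999 genes with a level. The levels come from HEL, a human erythroleukemia cell line, transduced with a small hairpin RNA against TMIGD2 (shTMIGD2, 3 libraries) or with a non-targeting control hairpin (shCtrl, 3 libraries). Both groups were cultures of 1 cell line carrying a lentiviral hairpin, and the labels call the libraries biological replicates. In bulk RNA, fewer cells that express a gene and less of its RNA per cell cannot be told apart.

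A level here is the authors' mean log2 CPM of a gene, which is the log2 of its counts scaled to a common library total (CPM), and it is 1 value over all 6 libraries of both groups. The series compared shTMIGD2 with shCtrl cells, but a mean over both groups holds neither the difference between them nor the spread between libraries. Whether the iron genes responded to loss of TMIGD2 was therefore not analysed here, and no value below has an SD or a p-value. For the same reason the mean of TMIGD2 itself, 16.9 CPM, does not check the knockdown. The number of reads per library is unknown from this column. The precision of each level could not be computed, and the order of genes with close levels is not established.

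Iron reaches an erythroid cell bound to transferrin, is taken in by the transferrin receptor and leaves the endosome through a membrane carrier. It is then used in mitochondria for heme, stored in ferritin or exported by ferroportin. A pair of iron regulatory proteins controls this balance by binding iron-responsive elements, short stem-loops in the untranslated regions of certain mRNAs. When iron is scarce, binding in the 5′ region blocks translation of ferritin, and binding in the 3′ region protects the transferrin receptor mRNA from decay. Erythroid precursors are known for very high iron uptake.

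The stem-loop was searched for in all 10 genes, and 4 of the 10 carried a match in their reference transcript. The search was for CAGTGN, the loop, closed by a stem of 5 base pairs (G-T pairs allowed), with an unpaired C just before the stem. Only the strand of the mRNA was searched. It was run on the MANE transcript, the 1 reference transcript chosen per coding gene, in GENCODE 44 on GRCh38. A match was present in 256 of 19061 such transcripts, or 1.34%. In 5′ untranslated regions matches were rarer, with 19 transcripts or 0.0997%, and in 3′ untranslated regions 121 transcripts or 0.635% held one. In coding sequence 116 transcripts or 0.609% held one. These shares are per transcript and do not allow for the length of each region. In the 10 genes there were 7 matches, 1 each in FTH1, FTL and SLC40A1 and 4 in TFRC. Each is shown because it is the site where an iron regulatory protein is known to bind this class of mRNA, as 28 bases of the mRNA written in DNA letters, 5′ to 3′, with the loop in capitals.

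FTH1, 5′ untranslated region, chr11:61967575-61967602, minus strand: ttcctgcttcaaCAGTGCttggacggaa
FTL, 5′ untranslated region, chr19:48965335-48965362, plus strand: ctcttgcttcaaCAGTGTttggacggaa
SLC40A1, 5′ untranslated region, chr2:189580662-189580689, minus strand: caacttcagctaCAGTGTtagctaagtt
TFRC, 3′ untranslated region, chr3:196050980-196051007, minus strand: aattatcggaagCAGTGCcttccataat
TFRC, 3′ untranslated region, chr3:196050576-196050603, minus strand: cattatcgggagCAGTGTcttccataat
TFRC, 3′ untranslated region, chr3:196050511-196050538, minus strand: ctgtatcggagaCAGTGAtctccatatg
TFRC, 3′ untranslated region, chr3:196050464-196050491, minus strand: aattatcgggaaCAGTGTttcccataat

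In FTH1, FTL and SLC40A1 the match lay in exon 1, with its last base 150, 146 and 202 bases before the first base of the start codon. In TFRC the 4 matches lay in exon 19, the first starting 935 bases and the last 1451 bases past the stop codon. The genes of storage and export thus held the match before the coding sequence, and the uptake receptor held it after. No match to these letters was found in TFR2, SLC11A2, SLC25A37, ACO1, IREB2 or HMOX1, in the MANE transcript or in any other annotated transcript. For SLC11A2 this covered 33 transcripts. The search took only an unbroken stem of 5 pairs and this 1 loop. A stem-loop with a bulge in its upper stem, or with other loop letters, would be missed. The lack of a match is therefore not the lack of an iron-responsive element, and the 4 matches in TFRC may not be all of its elements. Not every annotated transcript of the 4 genes with a match held one. It was present in 10 of 12 for FTH1, 1 of 1 for FTL, 3 of 7 for SLC40A1 and 26 of 38 for TFRC. The levels below are 1 value per gene, so which of these transcripts the cells made is unknown here. A match is a description of the sequence, and binding was not measured.

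**Figure D1:**
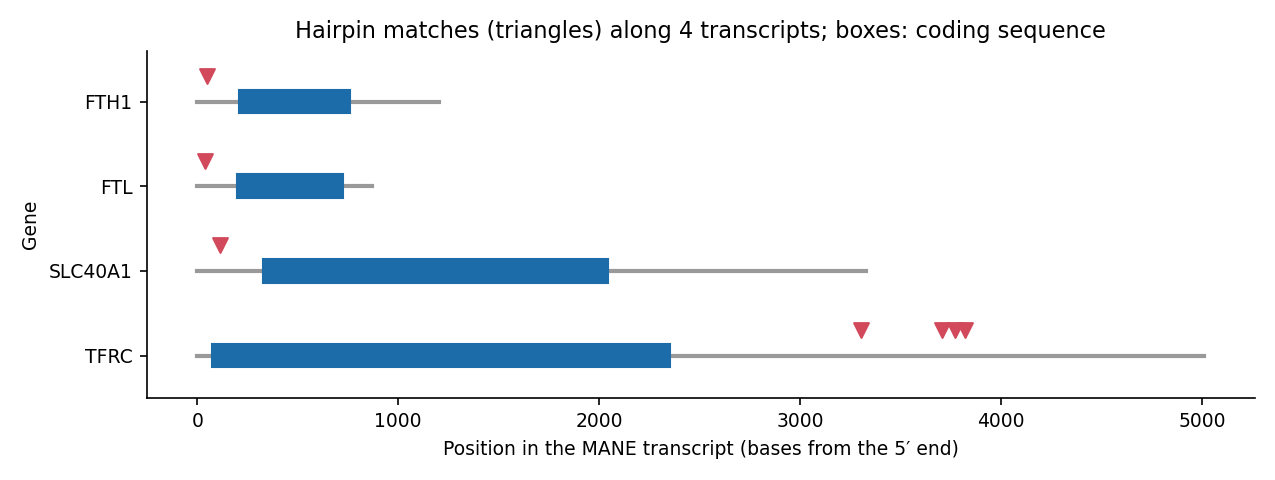
Position of the 7 stem-loop matches (triangles) along the MANE transcripts of FTH1, FTL, SLC40A1 and TFRC, in bases from the 5′ end. Boxes are coding sequence and lines are untranslated regions. FTH1, FTL and SLC40A1 have 1 match each before the box, and TFRC has 4 after it.

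TFRC, the transferrin receptor that brings transferrin-bound iron into the cell, had the highest level of the 10 genes per gene. Its mean log2 CPM was 11.09, or 2175 CPM, which placed it 24th of 31999 genes. It lies on the minus strand of chromosome 3 (196012511 to 196082153, GRCh38), and its MANE transcript has 19 exons and 5012 bases. TFR2, its homolog that senses transferrin and is known from liver and erythroid cells, had a mean log2 CPM of 7.79, or 221 CPM, at place 850. It lies on the minus strand of chromosome 7 (100620416 to 100642779). Since a longer transcript gives more fragments, levels of different genes were compared per kilobase of the MANE transcript. On that scale TFRC was at 434 CPM per kb and TFR2 at 76.7 CPM per kb, a ratio of 5.66. The ratio was 2.87 when all annotated exons were counted as length and 10.4 with coding length alone. The direction was thus the same with each choice of length, and its size was not.

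FTL and FTH1 encode the light and heavy chains of ferritin, the shell that stores iron, and the heavy chain oxidises the iron as it enters. FTL, on the plus strand of chromosome 19 (48965309 to 48966879), had a mean log2 CPM of 10.45, or 1397 CPM, at place 51 of all genes. FTH1, on the minus strand of chromosome 11 (61959718 to 61967634), had a mean log2 CPM of 8.25, or 304 CPM, at place 554. Per kilobase the light chain was at 1604 CPM per kb, the highest of the 10 genes with each choice of length, and the heavy chain at 253 CPM per kb. The ratio of light to heavy chain was 6.35 per kilobase of the MANE transcript, 10.6 per kilobase of all annotated exons and 4.80 per kilobase of coding length.

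Both ferritin genes have many processed pseudogenes, copies of the mRNA elsewhere in the genome, and a read that matches several places may be lost or be counted for a copy. The share of each transcript's windows that occurs letter for letter outside its own gene on the main chromosomes, on either strand, was therefore counted. For FTH1 this was 45.2% of windows of 50 bases, 22.6% of windows of 100 bases and 0.759% of windows of 150 bases. For FTL it was 25.8%, 3.37% and 0%. Of the other 8 genes, SLC25A37, IREB2 and ACO1 had 3.72%, 1.23% and 0.703% of windows of 50 bases repeated, and at 100 and 150 bases all 8 had 0%. With length counted as the windows found once, the ratio of FTL to FTH1 was 4.76 at 50 bases, 5.27 at 100 and 6.66 at 150.

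The pseudogenes themselves had levels too. Of FTH1, 16 named pseudogenes were listed, 11 of them at 1 CPM or more, and together they held 52.5 CPM, or 17.3% of the level of FTH1. The highest was FTH1P2 at 9.65 CPM. Of FTL, 9 were listed, and their sum of 37.2 CPM was 2.66% of the level of FTL, with FTLP3 at 26.2 CPM the highest. Which of these reads came from the parent mRNA was not tested. With all pseudogene counts added to their parents, the ratio of FTL to FTH1 was 5.56 per kilobase of the MANE transcript. The light chain was the higher one in each of these counts, and the value for FTH1 is uncertain to the extent that the windows above are repeated.

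**Figure D2:**
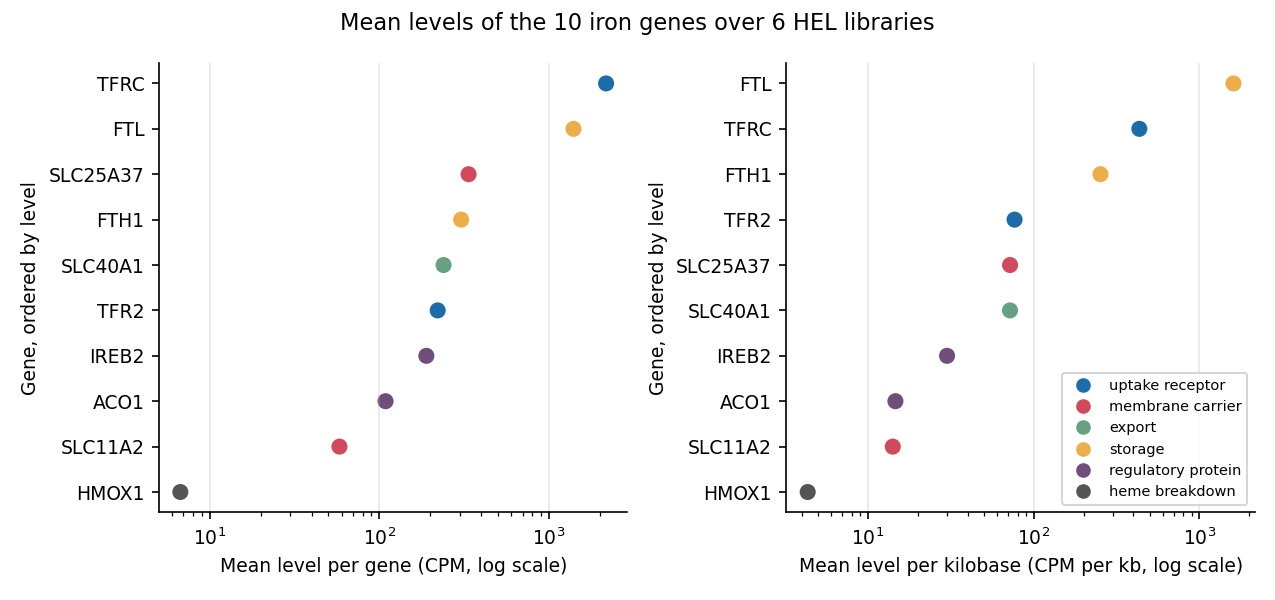
Mean level of the 10 iron genes over the 6 libraries, per gene (left, CPM) and per kilobase of the MANE transcript (right, CPM per kb), both on log axes, coloured by role. TFRC is highest per gene at 2175 CPM, FTL is highest per kilobase at 1604 CPM per kb, and HMOX1 is lowest in both panels.

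SLC11A2, also known as DMT1, carries iron out of the endosome once transferrin has released it. It stood at place 9 of the 10 per gene and per kilobase. Its mean log2 CPM was 5.87, or 58.3 CPM, and its level per kilobase was 14.1 CPM per kb. Its gene is on the minus strand of chromosome 12 (50979401 to 51028566). SLC25A37, or mitoferrin-1, carries iron into mitochondria for heme synthesis and is known as the erythroid form. Its mean log2 CPM was 8.39, or 337 CPM, at place 477 of all genes, and its level per kilobase was 72.0 CPM per kb. Its gene lies on the plus strand of chromosome 8 (23528956 to 23575463). The mitochondrial carrier was 5.10 times the endosomal one per kilobase of the MANE transcript, 7.13 times with all annotated exons and 9.58 times with coding length. SLC25A28, mitoferrin-2, the form found in most tissues, was at 10.8 CPM per kb.

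SLC40A1 is ferroportin, the known iron exporter of mammalian cells. Its mean log2 CPM was 7.90, or 240 CPM, at place 750 of all genes, and it lies on the minus strand of chromosome 2 (189560590 to 189583758). Its level of 72.0 CPM per kb was 1 place below SLC25A37, at a ratio of 1.00, and TFR2 was 1.06 times SLC25A37, so the order of these 3 genes is not established. With all annotated exons as length SLC40A1 was the highest of the 3, and with coding length SLC25A37 was. TFRC exceeded SLC40A1 by 6.03 times per kilobase of the MANE transcript and by 2.20 times with all annotated exons. HEPH, a copper oxidase that works beside ferroportin, was at 16.7 CPM per kb. HAMP, the hormone that triggers removal of ferroportin, and CP, another oxidase, had no value here.

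ACO1 and IREB2 encode the 2 iron regulatory proteins, the first of which is the cytosolic aconitase when it holds an iron-sulfur cluster. IREB2, on the plus strand of chromosome 15 (78437431 to 78501453), had a mean log2 CPM of 7.57, or 190 CPM. ACO1, on the plus strand of chromosome 9 (32384603 to 32454769), had a mean log2 CPM of 6.77, or 109 CPM. Per kilobase IREB2 was at 30.0 and ACO1 at 14.6 CPM per kb, a ratio of 2.05, which was 1.22 with all annotated exons and 1.61 with coding length. FBXL5, the iron-sensing subunit of the ligase that degrades the protein of IREB2, was at 8.25 CPM per kb. ACO1 was 1.04 times SLC11A2 per kilobase of the MANE transcript, 2.45 times with all annotated exons, 1.18 times with coding length and 1.87 times per gene. ACO1 was thus the higher with each choice, by an amount that depended on it. These choices divide the same pooled levels, so the order of ACO1 and SLC11A2 is not established.

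HMOX1, the inducible heme oxygenase that frees iron from heme, had the lowest level of the 10 with each choice of length. Its mean log2 CPM was 2.75, or 6.73 CPM, at place 10020 of all genes, and 4.33 CPM per kb. This was near the median of 3.58 CPM per kb over the 16174 genes with a MANE transcript. It lies on the plus strand of chromosome 22 (35380361 to 35394214). HMOX2, the form known as constitutive, was at 12.5 CPM per kb. BACH1, a heme-binding repressor known to act on HMOX1, was at 28.4 CPM per kb, and NFE2L2, the activator NRF2, at 20.4 CPM per kb. BLVRB, a reductase downstream in heme breakdown, was at 232 CPM per kb, the highest of the other iron and heme genes on this scale.

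Per kilobase of the MANE transcript the order of the 10 genes was FTL, TFRC, FTH1, TFR2, SLC25A37, SLC40A1, IREB2, ACO1, SLC11A2 and HMOX1. The span from FTL to HMOX1 was 370-fold. FTL was 3.70 times TFRC, which was 12.8 times with all annotated exons and 2.79 times with coding length, while per gene FTL was the lower at 0.642 times. FTH1 was 3.30 times TFR2, 3.47 times with all annotated exons and 6.02 times with coding length. SLC40A1 was 2.40 times IREB2, 3.23 times with all annotated exons and 2.13 times with coding length. SLC11A2 was 3.26 times HMOX1, 2.02 times with all annotated exons and 4.45 times with coding length. These 4 steps kept their direction with each choice of length, and their sizes moved with it. With all annotated exons as length FTH1 stood above TFRC, which was at 0.825 times its level, since TFRC has 17376 bases of exon over 38 annotated transcripts. Against all genes, 6 of the 10 were among the 1000 highest per gene, and the median percentile of the 10, the share of all genes with a lower level, was 97.5%. Together the 10 genes held 5038 CPM, or 0.503% of the summed level of all genes. The median log2 CPM of the 10 was 7.85, beside -0.97 over all 31999 genes and 4.55 over the 14000 genes at 1 CPM or more.

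**Figure D3:**
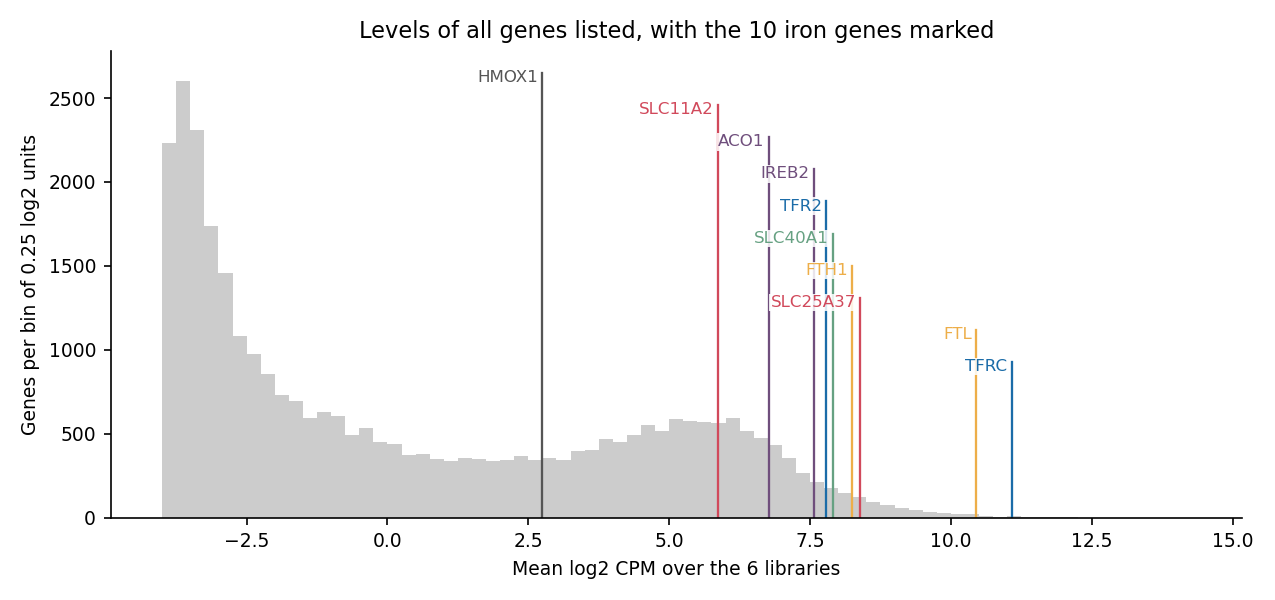
Histogram over all 31999 genes of the level as log2 CPM, in bins of 0.25, with the 10 iron genes marked by lines coloured by role. 9 of the 10 lie above 5.5 and HMOX1 lies at 2.75, and the peak at the left is made of genes near the lowest value listed.

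**Figure D4:**
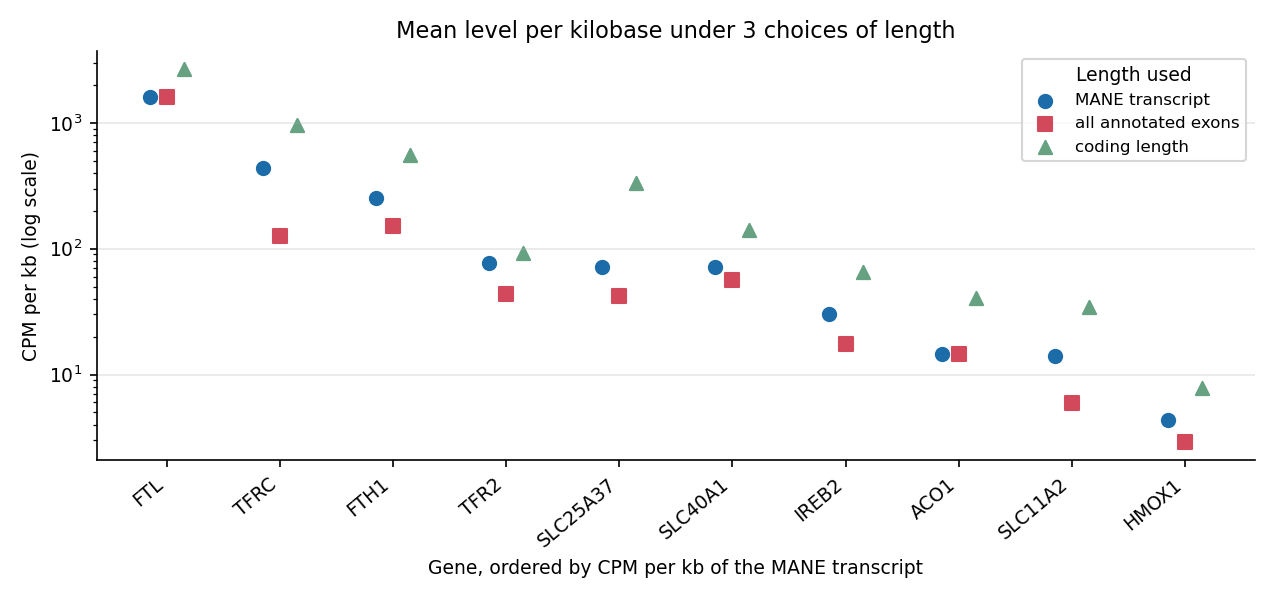
Level per kilobase of the 10 genes (log axis) with length taken as the MANE transcript, all annotated exons or the coding sequence. FTL is highest and HMOX1 lowest with each, while TFRC and FTH1, and TFR2, SLC25A37 and SLC40A1, change places.

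The other genes of iron and heme handling formed a list of 55, of which 49 had a value, 37 at 1 CPM or more and 12 below. Their median log2 CPM was 4.69. Per gene the highest were KEAP1, the sensor that holds NRF2 in check (7.89), PCBP2, an iron chaperone and RNA-binding protein (7.86), and BLVRB (7.53). The lowest were HPX, the plasma protein that binds heme (-3.76), SCARA5, a ferritin receptor (-3.66), and BMP2 (-3.66), all at the foot of the table, where the lowest value listed was -3.76.

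By role, all 9 genes of mitochondrial iron and iron-sulfur clusters were at 1 CPM or more, with log2 CPM from 3.85 to 6.70, and so were all 5 regulators. Of the 5 genes with a value for delivery, storage and release inside the cell, 4 were at 1 CPM or more. Among them were the iron chaperone PCBP1 (7.43) and NCOA4, the receptor that sends ferritin to the lysosome (7.17). Of 13 genes for capture of iron at the surface and for its reduction, 8 were at 1 CPM or more. STEAP3, the reductase that turns endosomal iron into the form SLC11A2 carries, had a log2 CPM of 6.37, while STEAP1 and STEAP2 were at -2.87 and -3.25. SLC39A8 and SLC39A14, carriers of iron not bound to transferrin, were at 7.12 and 6.95. HFE, a partner of both transferrin receptors, was at -1.36. TF, transferrin itself, was at 5.79 per gene. Its MANE transcript has 20166 bases, and per kilobase of that length TF was at 2.74 CPM per kb, below HMOX1 at 4.33. Per gene the order was the reverse, with TF at 55.3 CPM and HMOX1 at 6.73 CPM. Other choices of length were not computed for TF, so its place beside HMOX1 is not established.

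For export and systemic control 4 of 8 genes were at 1 CPM or more, led by NEO1 (6.87) and HEPH (6.21). HJV and TMPRSS6, which act on hepcidin in the liver, were at -2.32 and -2.87, and ERFE, the hormone of erythroid cells, was at 2.03. For heme transport and breakdown 7 of 9 were at 1 CPM or more, among them SLC48A1, a heme carrier (6.61), and FLVCR1, a heme exporter (4.43). CD163, a receptor of macrophages for hemoglobin, was at -3.32.

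**Figure D5:**
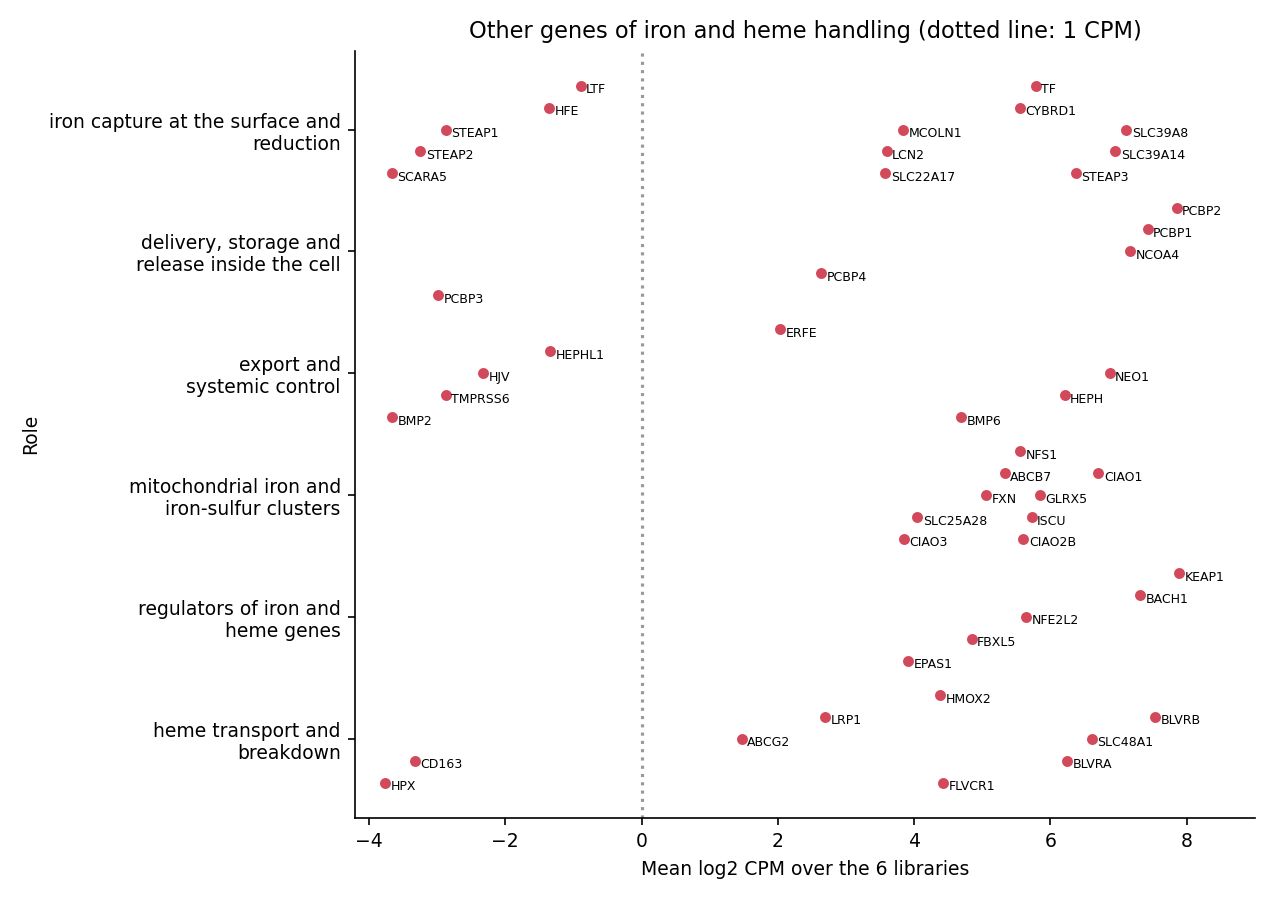
Mean log2 CPM over the 6 libraries of the 49 other iron and heme genes with a value, in rows by role. The dotted line is 1 CPM. All genes for mitochondrial iron and for regulation lie to its right, and 12 genes of the other rows lie to its left.

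The label of the line was checked against cell type markers on the same scale. All 9 erythroid markers had a value, with log2 CPM from 5.52 (EPOR) to 9.79 (HBA1), and 5 of 6 megakaryocyte markers lay between 6.59 and 10.54. The 4 granulocyte markers lay between -3.76 and -2.48. Of monocyte and macrophage markers, CD14 and CD163 were at -2.67 and -3.32, CSF1R at 0.26 and LYZ at 4.40. ALB, the only hepatocyte marker with a value, was at -3.76.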

How the data were processed

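RNA of HEL cells was sequenced as poly(A) libraries from a directional kit (3 shCtrl and 3 shTMIGD2). The authors' processing notes name STAR 2.6.1b, HTSeq 0.6.1, DESeq2 3.11, edgeR (without a version) and hg38, and the methods a refSeq annotation. The authors' deposited table gives each gene a log2 CPM, as 1 mean over all libraries. The authors' methods describe DESeq2 on genes averaging at least 1 count in either group, while the table's column names are those edgeR writes, so how this column was normalized and filtered is not settled here. Its other 4 columns hold the authors' own comparison (fold change, F, p-value, adjusted p-value) and were not used. The planned test needs counts per library and was not run. Of the gene names, 24 read as dates and were left as they are.

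From this column CPM, places and percentiles were computed (Python 3.11.15, pandas 2.3.3). Positions, MANE transcripts and lengths came from GENCODE 44 on GRCh38, the assembly of hg38, and gene models can differ from those counted on. Of the genes listed, 16341 matched a symbol that GENCODE gives as protein-coding. The stem-loop search and the window counts (50, 100 and 150 bases, exact matches) were tested on simulated sequence first. They were chosen after the levels had been seen, as were the MANE transcript as the length, the percentiles per kilobase, the pseudogene counts and the roles by which the list of other iron genes was divided. The 10 genes and the lists were chosen with earlier results of these data known. Named from the list were its 3 highest and 3 lowest genes, direct partners of the 10, and, chosen after their values were seen, others that show a role's range. The reads per library are unknown here, so no interval could be computed.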

Additional observations from a re-analysis of the deposited data

How the results depend on the processing

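Of the 10 places in the order per kilobase of the MANE transcript, 4 were the same per gene, 5 with all annotated exons as length and 7 with coding length. The median percentile of the 10 genes was 97.5% among all genes, 94.3% among genes at 1 CPM or more and 95.3% among protein-coding genes. Per kilobase among genes with a MANE transcript, an alternative chosen after seeing the data, it was 94.0%. The ranking sets are smaller by construction and hold fewer genes of low level. Per kilobase FTL over FTH1 was 6.35, and 10.6 with all annotated exons, 4.80 with coding length, 4.76, 5.27 and 6.66 over windows of 50, 100 and 150 bases found once, and 5.56 with pseudogenes added. Per gene it was 4.59. All these were chosen after seeing the data. The order turned for TFRC over FTH1 (0.825) and SLC25A37 over SLC40A1 (0.741) with all annotated exons, for TFR2 over SLC25A37 with coding length (0.277) and per gene (0.657), and for FTL over TFRC per gene (0.642). It also turned for TFR2 over SLC40A1, at 1.07 with the MANE transcript, with all annotated exons (0.769), with coding length (0.658) and per gene (0.923). FTL and HMOX1 kept their places under both other choices of length. The alternatives that need counts per library (another count model, other size factors, no filter, each replicate left out) were not run. No paired analysis was possible because the value used is 1 mean per gene over all 6 libraries. A change of pseudocount was not possible for the same reason.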
